A study of Caenorhabditis elegans with 2 samples.

Results

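The genes described here are 44 nuclear genes of the respiratory chain of the nematode Caenorhabditis elegans, among 19973 nuclear protein-coding genes. They were taken by name from the Ensembl WBcel235 annotation, and all 44 names were found. They comprise 8 genes of complex I, 4 of complex II, 7 of complex III, 2 of cytochrome c, 7 of complex IV, 6 of its assembly and 10 of complex V. The list is partial. Further subunits, such as that of the complex I gene ndua-2, fall in a list of 55 other genes described near the end. Their names were fixed by the role of the encoded protein and not by a ChIP signal. The list was, however, chosen with earlier results of these data known.

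The respiratory chain sits in the inner mitochondrial membrane. Complexes I and II pass electrons from NADH and succinate to ubiquinone, complex III passes them to cytochrome c, and complex IV reduces oxygen. Complexes I, III and IV pump protons, and complex V, the ATP synthase, uses the gradient to make ATP. Most subunits are encoded in the nucleus, and in C. elegans mutations in several of these genes change the rate of development, sensitivity to oxidative stress or lifespan.

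MED-1 belongs to the GATA family of transcription factors and acts in the mesendoderm, the early tissue that gives rise to gut and to much of the pharynx and body muscle. Its sites were mapped by chromatin immunoprecipitation with sequencing (ChIP-seq) using an antibody to GFP; a separate antibody entry in the labels reads med-1, the protein that carries the tag. There was 1 group of 2 biological replicates, both whole hermaphrodite embryos of the middle embryonic stage (age unknown), with chromatin sheared by sonication. Both replicates were of the transgenic strain OP391, so both carried the unc-119(ed3) mutation on chromosome III and the inserted transgene wgIs391. That transgene holds med-1 with a C-terminal TY1, EGFP and FLAG tag and an unc-119(+) copy. The signal is that of the tagged protein made from an inserted transgene. A control experiment is named in the labels and was not analysed here. In whole embryos, the share of cells with the protein at a site and its level in each cell cannot be told apart.

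The deposited values are peak lists on the genome build ce11, another name of the WBcel235 assembly. Replicate 1 had 2401 peaks and replicate 2 had 30000. The pooled list of both replicates had 30000. Each of these lists keeps background, and the reason for their different lengths is unknown. The optimal set of the irreproducible discovery rate (IDR), which weighs the ranks of peaks between replicates, held the 460 strongest pooled peaks. A place in this set did not require a peak in both replicate lists, since the optimal peak at nuo-2 overlapped none in replicate 1. Each peak has a signal, the authors' own value, which has no stated unit and is comparable only within a list, and a summit, the position of its maximum. In the pooled list the signal ran up to 778, with a median of 14.97, and the lowest signal in the optimal set was 38.9. Ranks below count from the strongest peak of a list, and a gene was given the strongest summit within 2 kb of any of its transcript starts. Distances are to the nearest start of the gene, negative when upstream. Read depth is unknown, so no counting error can be attached to a peak, and with 1 group and no test over samples the values of both replicates are given as they stand.

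Of the 44 respiratory chain genes, 8 (18.2%) had an optimal summit within 2 kb, against 2.99% of all nuclear protein-coding genes, which include the 44. These were ucr-11 and cyc-1 of complex III, cyc-2.1 of cytochrome c, nuo-2 and nuo-5 of complex I, cox-6B and cox-6A of complex IV, and atp-2 of complex V. Each of the complexes I, III, IV and V thus had at least 1 gene with an optimal summit, while the 4 genes of complex II and the 6 of complex IV assembly had 0. The pooled ranks of the 8 ran between 53 and 430, with a median signal of 49.6, against 63.6 for all genes with an optimal summit. Of the 8, 4 had the summit within 500 bp of a start (9.09% of 44, against 1.42% of all genes), namely cyc-1, nuo-2, cox-6B and atp-2.

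Sequence around the summit is shown for 4 of these 8 genes, nuo-5, cyc-2.1, cox-6B and atp-2, to let their sites be compared, and for mev-1 of complex II, whose summit window held the most of the motifs searched. Each run is the 201 bases centred on the pooled summit, from the ce11 assembly of RefSeq, 5′ to 3′ on the strand of the gene. Capitals mark every match, on either strand, to 6 patterns. These are AGTATAC, the core of the MED site, TGATAA, an extended GATA site, CCGCCC or CCACCC, bound by Sp1-type factors, and the E2F-like TTNNCGC with C or G at each N. GTTCGA belongs to the internal promoter of tRNA genes. AAGTGCG was chosen after the windows were seen, because it recurred in some of them. The windows are chrV:2697831-2698031 for nuo-5, chrIV:4749981-4750181 for cyc-2.1, chrIII:2785998-2786198 for cox-6B, chrIII:5228111-5228311 for atp-2 and chrIII:10334149-10334349 for mev-1. The strand was minus for cyc-2.1 and plus for the other 4.
nuo-5: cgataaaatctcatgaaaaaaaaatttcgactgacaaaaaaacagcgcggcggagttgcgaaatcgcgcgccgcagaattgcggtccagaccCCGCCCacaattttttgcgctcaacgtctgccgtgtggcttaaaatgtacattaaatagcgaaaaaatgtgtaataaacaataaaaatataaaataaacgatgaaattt
cyc-2.1: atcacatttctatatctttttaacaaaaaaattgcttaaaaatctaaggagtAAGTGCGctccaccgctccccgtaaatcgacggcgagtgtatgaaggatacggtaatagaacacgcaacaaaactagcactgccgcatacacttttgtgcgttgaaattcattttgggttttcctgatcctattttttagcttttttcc
cox-6B: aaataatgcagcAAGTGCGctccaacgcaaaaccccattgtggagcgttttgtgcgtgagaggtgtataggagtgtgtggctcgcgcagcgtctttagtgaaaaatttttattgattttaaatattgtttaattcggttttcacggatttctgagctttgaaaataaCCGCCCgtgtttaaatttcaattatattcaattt
atp-2: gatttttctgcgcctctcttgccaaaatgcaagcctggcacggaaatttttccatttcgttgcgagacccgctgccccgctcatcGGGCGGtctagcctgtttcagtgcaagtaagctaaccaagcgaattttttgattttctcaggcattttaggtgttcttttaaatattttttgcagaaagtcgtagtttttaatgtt
mev-1: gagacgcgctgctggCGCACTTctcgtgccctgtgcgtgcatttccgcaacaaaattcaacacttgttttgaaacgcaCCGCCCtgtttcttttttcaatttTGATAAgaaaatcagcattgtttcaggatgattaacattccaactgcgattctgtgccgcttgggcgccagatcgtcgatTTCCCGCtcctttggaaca

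In these runs nuo-5 had CCGCCC starting 8 bases before the summit, at an offset of -8, and cox-6B had it at 67. The atp-2 window had the same site on the other strand, printed as GGGCGG, at -15. The run AAGTGCG stood at -48 in cyc-2.1 and at -88 in cox-6B, and in mev-1 on the other strand, printed as CGCACTT, at -85. The mev-1 window also held CCGCCC at -22, TGATAA at 2 and TTCCCGC at 82. None of the 5 windows held the core of the MED site.

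**Figure D1:**
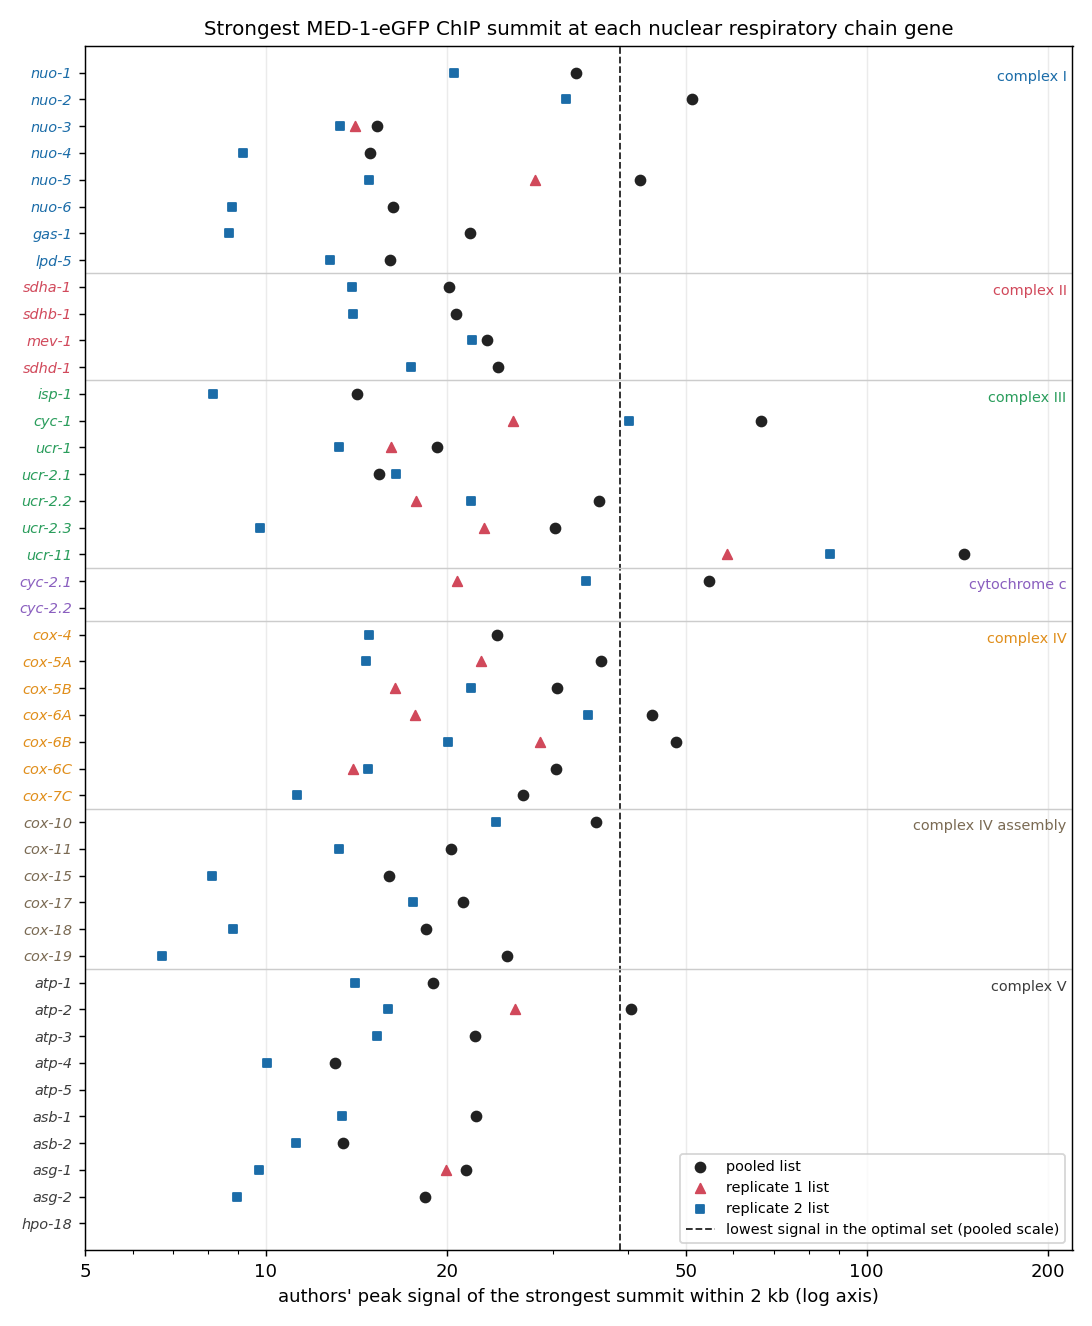
Signal of the strongest summit within 2 kb of each of the 44 genes (log axis, the authors' peak signal), grouped by complex, with black circles for the pooled list, red triangles for replicate 1 and blue squares for replicate 2. The dashed line is the lowest signal in the optimal set, 38.9 on the pooled scale, and 8 black circles lie to the right of it, led by ucr-11 at 145; the scales of the lists differ.

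In complex III, ucr-11 (WBGene00019007), which encodes a small subunit, had the strongest summit of all 44 genes. Its pooled signal was 145 at rank 53, with 58.6 at rank 78 in replicate 1 and 86.9 at rank 44 in replicate 2. It was the only one of the 8 with a value of at least 2 in the q-value column of the pooled list, 2.45. The peak spanned chrI:6554533-6554856. Its summit at 6554695 lay 1316 bp upstream of ucr-11, but 34 bp upstream of the start of tre-1, a trehalase gene on the other strand, and 405 bp upstream of dad-1, which encodes a subunit of oligosaccharyltransferase. The dad-1 gene ends 101 bp before ucr-11 on the same strand. The same summit is thus shared by 3 genes, and the lists do not say to which it belongs.

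The second complex III gene, cyc-1 (WBGene00000869), encodes cytochrome c1. It had a pooled signal of 66.8 at rank 212, 25.8 at rank 280 in replicate 1 and 40.3 at rank 204 in replicate 2. The summit at chrI:8024708 lay 286 bp upstream of cyc-1, whose start was the nearest, outside any protein-coding gene. The 2 replicate summits were 290 and 277 bp upstream, so all lists placed it at the same site.

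Cytochrome c, which shuttles electrons between complexes III and IV, has 2 genes in the worm. The gene cyc-2.1 (WBGene00017121) had a pooled signal of 54.7 at rank 294, with 20.8 at rank 431 in replicate 1 and 34.1 at rank 261 in replicate 2. Its summit at chrIV:4750081 was 1069 bp upstream of cyc-2.1, 303 bp upstream of the ribosomal protein gene rpl-20, which ends 110 bp before cyc-2.1 on the same strand, and 159 bp upstream of Y17G9B.5 on the other strand. The paralog cyc-2.2 had no summit within 2 kb in any list.

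In complex I, nuo-2 (WBGene00020417), the NDUFS3 homolog, had a pooled signal of 51.1 at rank 312 and 31.5 at rank 288 in replicate 2. The list of replicate 1 had no peak there. The summit at chrI:6532121 lay 158 bp upstream of nuo-2, in a UTR exon of T10E9.14, which ends 19 bp before nuo-2 on the same strand. For nuo-5 (WBGene00021562), the homolog of NDUFS1, a large subunit of the arm that oxidises NADH, the pooled signal was 41.99 at rank 409. It had 28.0 at rank 250 in replicate 1 and 14.8 at rank 2499 in replicate 2. Its summit at chrV:2697931 was 1041 bp upstream, in an intron of Y45G12B.2, the gene that ends 104 bp before nuo-5. The support of these 2 genes thus came from different replicates: replicate 2 for nuo-2, and mainly replicate 1 for nuo-5.

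In complex IV, cox-6B (WBGene00022170) had a pooled signal of 48.1 at rank 339, 28.6 at rank 243 in replicate 1 and 20.1 at rank 759 in replicate 2. The summit at chrIII:2786098 lay 104 bp upstream of one of the 2 annotated starts of cox-6B and inside an intron of the longer transcript. It was also 150 bp upstream of Y71H2AM.20 and 754 bp upstream of nduc-2, another complex I gene. With the most upstream start alone cox-6B had no optimal summit. The gene cox-6A (WBGene00006519) had a pooled signal of 44.0 at rank 391, 17.7 at rank 684 in replicate 1 and 34.3 at rank 254 in replicate 2. Its summit at chrIII:5080918 lay 806 bp upstream, the nearest start being that of cox-6A, but 20 bp from the snRNA gene F54D8.7. Both genes encode small nuclear subunits of cytochrome c oxidase.

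In complex V, atp-2 (WBGene00000229), which encodes the catalytic beta subunit of ATP synthase, had the lowest signal of the 8, 40.5 at rank 430. The peak of replicate 1 at this site had 26.01 at rank 279 and that of replicate 2 had 14.7 at rank 2586. A stronger replicate 2 summit, with 15.98 at rank 1848, lay 1959 bp downstream of the start. The pooled summit at chrIII:5228211 was 206 bp upstream of atp-2 and 327 bp upstream of C34E10.10 on the other strand.

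Just outside the optimal set stood cox-5A of complex IV, at pooled rank 545 with a signal of 36.1, ucr-2.2 of complex III, at rank 554 with 35.8, and cox-10 of complex IV assembly, at rank 570 with 35.5. The gene cox-5A had a summit 409 bp upstream of its start, matched by rank 358 with 22.8 in replicate 1 and by rank 6402 with 11.8 in replicate 2. The gene ucr-2.2, one of 3 worm genes for core protein 2, had a summit 116 bp upstream, with 17.8 at rank 681 in replicate 1 and 21.9 at rank 570 in replicate 2. The gene cox-10, whose product makes the heme precursor of complex IV, had a summit 1646 bp upstream, with 24.2 at rank 451 in replicate 2 and none in replicate 1. That summit was 6 bp from a tRNA gene.

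Further down the pooled list the share of respiratory chain genes stayed above that of all genes at each depth listed. Of the 44, 15 (34.1%, against 5.99% of all genes) had a summit among the 1000 strongest pooled peaks, 17 (38.6%, against 10.6%) among the 2000 strongest and 28 (63.6%, against 22.5%) among the 5000 strongest. In the whole pooled list 41 had one (93.2%, against 73.6%), and within 500 bp of a start 31 did (70.5%, against 38%). For the 2 kb window the ratio of the shares thus became smaller with depth from the 460 optimal peaks on. In the whole list most genes of the genome had a peak within that distance. The ratio was not greatest at the very top. Among the 230 optimal peaks with the highest signal, 2 of the 44 had one, against 1.47% of all genes. Among the 196 with a q-value column of at least 2, 1 of the 44 did, against 1.3%. Counts of 1 and 2 are too small to rank these ratios closely. The median pooled rank of the strongest summit was 3058 over the 41 genes, against 9541 over all genes with a summit, and the median signal was 22.4, against 17.1.

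**Figure D2:**
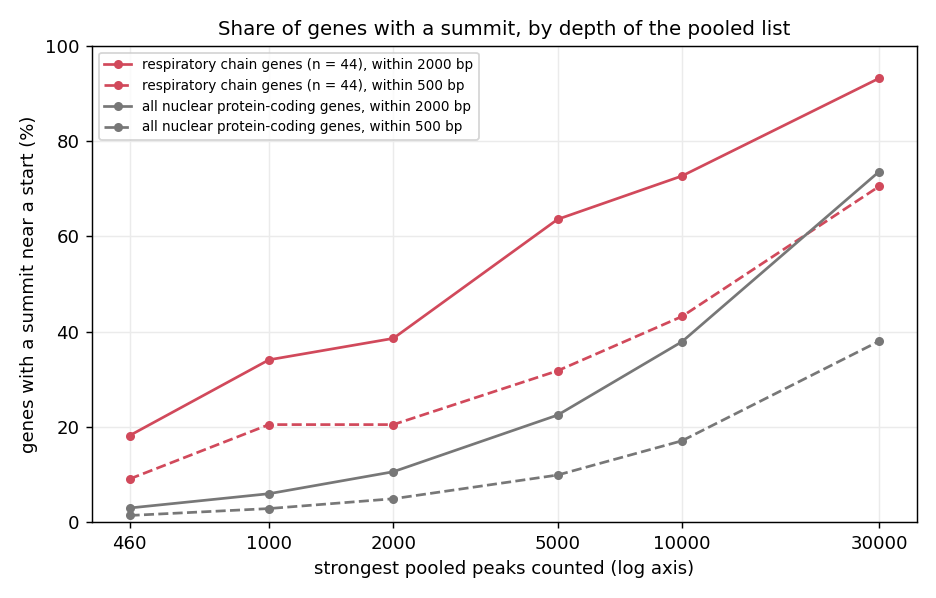
Percent of genes with a summit within 2 kb (solid) or 500 bp (dashed) of a transcript start, against the number of strongest pooled peaks counted (log axis), for the 44 respiratory chain genes in red and all 19973 nuclear protein-coding genes in grey. The red lines lie above the grey lines of the same window at each depth, at 18.2% against 2.99% for 460 peaks and 93.2% against 73.6% for 30000 peaks with 2 kb.

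By complex, the summits of the listed genes lay at different depths of the pooled list. Of all genes, 5.99% had a summit among the 1000 strongest peaks and 22.5% among the 5000 strongest. The partial list leaves out ndua-2, a complex I gene with a summit at rank 24. In complex IV, 5 of 7 genes were among the 1000 strongest peaks and all 7 among the 5000 strongest. In complex III, 4 of 7 genes were among the 1000 strongest, and no more were added by the 5000 strongest. Complex II had 0 of 4 among the 1000 strongest and 4 of 4 among the 5000 strongest. Of complex V, 1 of 10 genes was among the 1000 strongest and 4 among the 5000 strongest. With 2 to 10 genes in a class and 1 summit for each gene, these counts describe the genes listed and were not compared by a test.

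**Figure D3:**
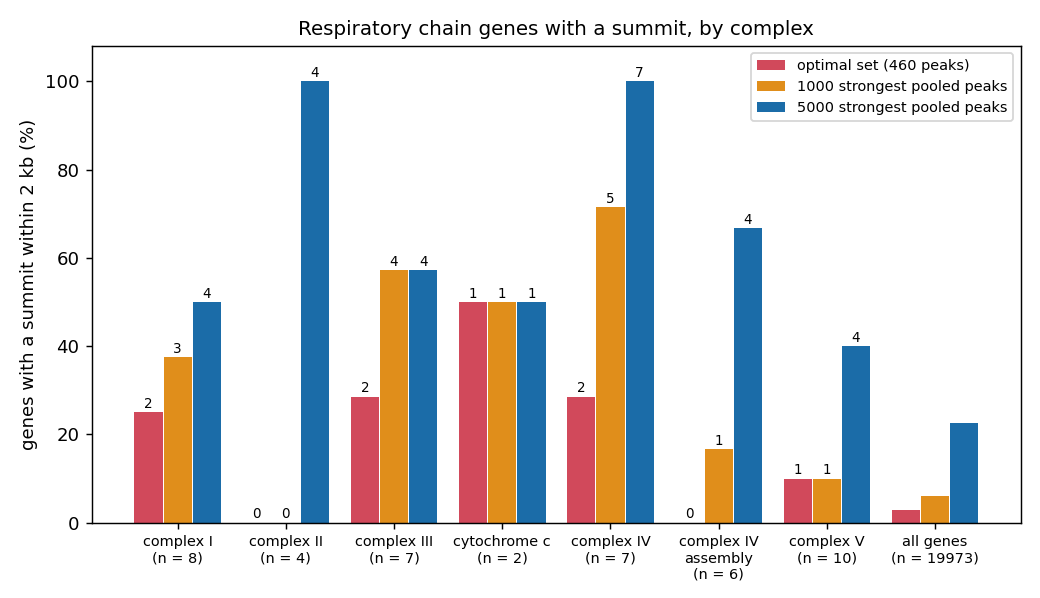
Percent of genes with a summit within 2 kb of a start in each complex, among the 460 peaks of the optimal set (red), the 1000 strongest (orange) and the 5000 strongest pooled peaks (blue), with the number of genes above each bar and all genes at the right. The listed genes of complexes II and IV reach 100% at 5000 peaks. Among the 1000 strongest, however, 0 of 4 have a summit in complex II and 5 of 7 in complex IV.

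The other listed complex I genes had pooled ranks between 670 and 15165. The gene nuo-1, the homolog of NDUFV1, the subunit that binds NADH, was next after the optimal set at rank 670 with a pooled signal of 32.8, 165 bp upstream of its start. Replicate 2 had 20.6 at rank 703 at the same distance, and replicate 1 had no peak there. The genes nuo-6, lpd-5, nuo-3 and nuo-4, which encode accessory subunits, ranked 11481, 12013, 14014 and 15165. Of these, nuo-3 also had a replicate 1 summit, with 14.1 at rank 1772, but 300 bp downstream of the start, whereas its pooled summit and that of replicate 2 were 1426 bp upstream.

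Complex II, succinate dehydrogenase, is also an enzyme of the citrate cycle and has no subunit encoded in mitochondrial DNA. None of its 4 listed genes had a replicate 1 summit, against 11.9% of all genes, and so few genes cannot show a lower share. The best pooled rank of the 4 was that of sdhd-1, a membrane anchor subunit, at 2061 with a signal of 24.3. Its summit lay 525 bp downstream of the start, in a coding exon, and the start of F33A8.4 was nearer, 358 bp away. Next was mev-1, the cytochrome b subunit, known for its oxygen-sensitive and short-lived mutant. Its pooled signal was 23.3 at rank 2523, with 22.1 at rank 562 in replicate 2, 28 and 29 bp upstream of the start. Of the 4 genes, mev-1 had the best rank in replicate 2. The iron-sulfur subunit gene sdhb-1 ranked 4310, with its summit 1314 bp downstream in a coding exon. The flavoprotein gene sdha-1 ranked 4895, with a summit 111 bp upstream that lay inside a snoRNA gene.

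In the rest of complex III, ucr-2.3 had a pooled signal of 30.3 at rank 867 and 23.0 at rank 351 in replicate 1, at 1835 and 1820 bp downstream of its start, in a UTR exon of zer-1. In replicate 2 its strongest summit was 9.78 at rank 11943. The gene ucr-1, for core protein 1, had a pooled rank of 5963, with its summit 1146 bp downstream of a start. Its strongest summit in replicate 1 had 16.2 at rank 957, 1362 bp downstream. That in replicate 2 had 13.2 at rank 4000, 1549 bp downstream and nearer to the start of ced-6, and its peak did not overlap the pooled one. The gene ucr-2.1 ranked 13716 in the pooled list but 1611 in replicate 2, with 16.5. Last was isp-1, the Rieske iron-sulfur protein, known for a long-lived mutant, at rank 17810 with 14.2, close to the median signal of the list. The 3 genes for core protein 2 thus ranked 554, 867 and 13716.

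Complex IV had its remaining genes between ranks 838 and 2086. The gene cox-5B had a pooled signal of 30.5 at rank 838, 111 bp upstream of a start, with 16.4 at rank 909 in replicate 1 and 22.0 at rank 569 in replicate 2. The gene cox-6C had 30.4 at rank 853, with 13.98 at rank 1840 in replicate 1 and 14.8 at rank 2553 in replicate 2. Its summit was 489 bp upstream in all 3 lists, although the start of grld-1 was nearer, 311 bp away. The genes cox-7C and cox-4 ranked 1414 and 2086, and neither had a replicate 1 summit. The pooled cox-7C summit lay 1177 bp downstream, in a coding exon of F26E4.7, 69 bp from that gene's start. In replicate 2 the strongest cox-7C summit ranked 7554, 40 bp downstream of its own start. Complex IV was the class in which all 7 genes ranked 2086 or better in the pooled list. The summits of cox-6C and cox-7C, however, lay nearer to the start of another gene.

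The assembly genes of complex IV, which supply heme and copper or insert subunits into the membrane, had pooled ranks between 570, that of cox-10, and 12134. The genes cox-19 and cox-17, both copper carriers of the intermembrane space, ranked 1795 and 3817. The pooled cox-17 summit lay 1524 bp upstream, in an intron of ubc-20, whose start was nearer. The copper delivery gene cox-11 ranked 4758, the insertase gene cox-18 ranked 7090 and the heme A synthase gene cox-15 ranked 12134. None of the 6 had a replicate 1 summit, against 11.9% of all genes, and so few genes cannot show a lower share. In replicate 2 cox-17 ranked 1208 and cox-19 ranked 29628, close to the end of that list.

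In complex V, asb-1, atp-3 and asg-1 followed atp-2, at pooled ranks 3058, 3116 and 3650. They encode subunit b, the OSCP stalk subunit and subunit g. Of these, asg-1 also had a replicate 1 summit, with 19.9 at rank 478 and 223 bp upstream of its start, while the pooled summit lay 1562 bp upstream and that of replicate 2, at rank 12098, 691 bp downstream. The 3 lists thus gave asg-1 different sites. The pooled summits of asb-1 and atp-3 lay 1987 and 1346 bp downstream, nearer to the starts of apc-11 and F27C1.6. The alpha subunit gene atp-1 ranked 6316, with the summit 44 bp downstream of its start, and asg-2, asb-2 and atp-4, for further membrane and stalk subunits, ranked 7184, 20655 and 22536. The genes atp-5, for subunit d, and hpo-18, for subunit epsilon, had no summit within 2 kb in any list.

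**Figure D4:**
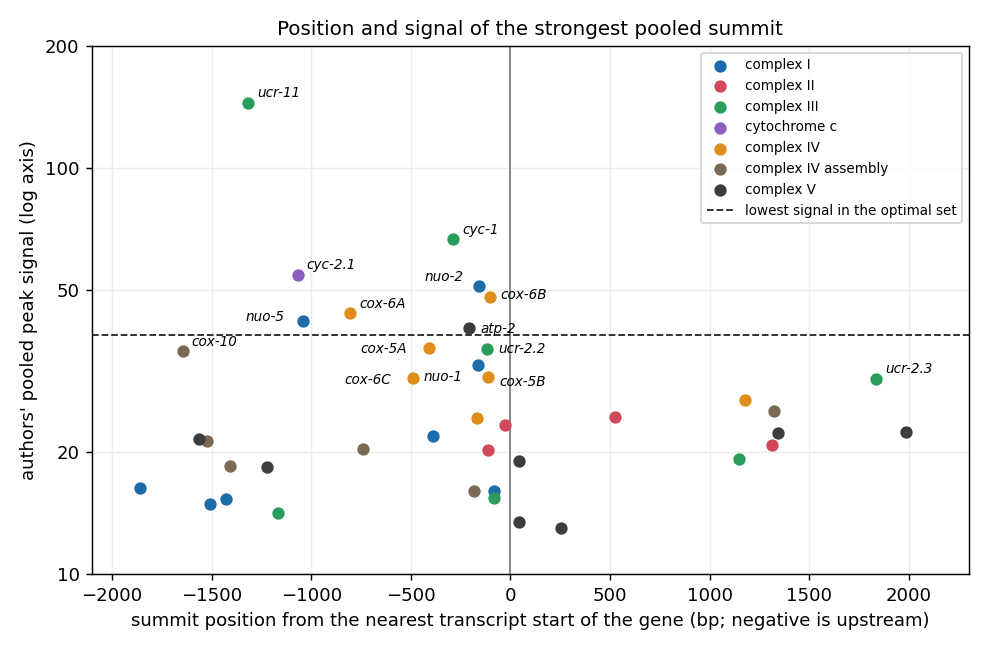
Pooled signal (log axis, the authors' peak signal) of the strongest summit of each of the 41 genes with one, against its distance from the nearest transcript start of the gene in bp, negative upstream, coloured by complex; the dashed line is the lowest signal in the optimal set, 38.9. All 8 summits above the line are upstream of that start, by 104 to 1316 bp. The share upstream was not computed over all genes with an optimal summit.

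All 8 optimal summits were upstream of the nearest start of the gene they were assigned to, and that of cox-6B lay within the gene, downstream of its other start. The share upstream was not computed over all genes with an optimal summit, so the 8 cannot be set against a background. Over the 41 genes with a pooled summit, 16 (39%) had the strongest one within 500 bp upstream of a start, against 20.6% of all genes with a summit, and 3 (7.32%, against 13.2%) within 500 bp downstream. A further 14 (34.1%, against 35.4%) had it farther upstream and 8 (19.5%, against 30.8%) farther downstream. The member was the gene with the nearest start for 24 of the 41 summits (58.5%, against 70.1% of all genes with a pooled summit). The same held for 5 of the 8 optimal ones (62.5%, against 57.4%), cyc-1, nuo-2, cox-6B, cox-6A and atp-2. A small structural RNA gene lay within 200 bp of 3 of the 41 summits (7.32%, against 2.45%), those of cox-6A, cox-10 and sdha-1, and of 1 of the 8 optimal ones (12.5%, against 30.1%).

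The replicates overlapped in part. In the list of replicate 1, 15 of the 44 genes had a summit within 2 kb (34.1%, against 11.9% of all genes), and in that of replicate 2 41 did (93.2%, against 74.4%). The median rank was 431 in replicate 1, against 1053 over all genes, and 3139 in replicate 2, against 9723. A peak of replicate 1 overlapped the pooled peak of 13 of the 41 genes, a peak of replicate 2 that of 38, and peaks of both that of 12. These 12 were the optimal genes other than nuo-2, together with ucr-2.2, ucr-2.3, cox-5A, cox-5B and cox-6C. Such overlaps were not counted over all genes, so no background share can be set beside them. Since the shorter list of replicate 1 ends at a signal of 13.2 on its own scale, a missing peak there does not show that the signal was absent. The same holds for the pooled list, which ends at 11.5, and that of replicate 2, which ends at 6.66.

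At equal list lengths the replicates gave similar counts but partly different genes. Among the 460 strongest peaks of each, 8 genes had a summit in replicate 1 (18.2%, against 2.83% of all genes) and 6 in replicate 2 (13.6%, against 2.88%). Of these, 3 were shared, ucr-11, cyc-1 and cyc-2.1, which is 37.5% of the 8 and 50% of the 6. Over all genes with a summit at that depth, 70% of those of replicate 1 and 68.8% of those of replicate 2 were shared. Among the 2401 strongest peaks of each, 15 genes had one in replicate 1 (34.1%, against 11.9%) and 16 in replicate 2 (36.4%, against 12%). Of these, 8 were shared (53.3% of the 15 and 50% of the 16, against 41.1% and 40.7% over all genes), the same 3 and ucr-2.2, cox-5B, cox-6A, cox-6B and atp-2. Shared means the same gene, not the same site. For atp-2 the replicate 1 summit lay 237 bp upstream and that of replicate 2 1959 bp downstream. The replicate 2 peak upstream of atp-2 ranked 2586, beyond this depth. For cox-5B the summits lay 105 bp downstream in replicate 1 and 107 bp upstream in replicate 2, in overlapping peaks. In replicate 1 alone were nuo-3, nuo-5, ucr-1, ucr-2.3, cox-5A, cox-6C and asg-1, and in replicate 2 alone nuo-1, nuo-2, mev-1, sdhd-1, ucr-2.1, cox-10, cox-17 and atp-3. Both cytochrome c1 and cytochrome c, through cyc-1 and cyc-2.1, were thus among the 460 strongest peaks of both replicates. No listed gene of complexes I, II, IV or V was. The complex I gene ndua-2, which is not among the listed genes, had overlapping peaks at rank 13 in replicate 1 and rank 41 in replicate 2.

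By chromosome, an optimal summit was found for 3 of 12 genes on I (25%, against 3.96% of all genes there), 3 of 10 on III (30%, against 4.51%), 1 of 6 on IV (16.7%, against 2.16%) and 1 of 5 on V (20%, against 2.18%). On II 0 of 5 genes had one, against 3.28% of all genes there, and on X 0 of 6, against 2.64%, and so few genes cannot show a lower share.

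Several members lie directly behind another gene, an arrangement that in worms often marks an operon, in which 1 promoter serves several genes and trans-splicing separates the messages. This grouping was made after the summits were seen. A gene on the same strand ended within 200 bp upstream for 11 of the 44 genes (25%, against 10.8% of all genes). These were nuo-2, nuo-4, nuo-5, ucr-11, cyc-2.1, cox-11, cox-15, cox-17, cox-18, cox-19 and atp-4. Of the 11, 4 had an optimal summit, nuo-2, nuo-5, ucr-11 and cyc-2.1 (36.4%, against 3.29% of all genes in that arrangement), and of the other 33 genes 4 had one, against 2.96% of all other genes. When the start of the first gene in such a run was used in place of the start of the gene itself, 5 of the 44 had an optimal summit within 500 bp (11.4%, against 1.89%). These were cyc-1, ucr-11, cyc-2.1, cox-6B and atp-2. The change thus added ucr-11 and cyc-2.1, removed nuo-2 and did not add nuo-5. Within 2 kb of that start the count was again 8 (18.2%, against 3.43%). The letters TTTCAG, the usual 3′ splice site of worms, stood in the 10 bases before a transcript start of 17 of the 44 genes (38.6%, against 18.4% of all genes). Such an annotated start may be a splice site rather than a promoter, so distances to it may not be distances to where transcription begins.

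The motif matches followed no single pattern across the members. In the 201 bases around the 8 optimal summits, CCGCCC or CCACCC occurred at 4 genes, nuo-5, ucr-11, cox-6B and atp-2 (50%, against 25.9% of all 440 nuclear optimal summits). The E2F-like site occurred at 1, nuo-2 (12.5%, against 15.9%), and GTTCGA at 1, cox-6A (12.5%, against 32.5%). Neither TGATAA nor AGTATAC occurred at any of the 8, against 8.18% and 0.909% of all nuclear optimal summits. The run AAGTGCG, picked from these same windows, occurred at 4 of the 8, cyc-1, ucr-11, cyc-2.1 and cox-6B (50%, against 9.32%), and its count is not independent of that choice. Mean GC content was 41.3% in the 8 windows, against 44.1%.

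Over the 41 strongest pooled summits of the members, CCGCCC or CCACCC occurred in 6 windows (14.6%, against 8.38% of the 11048 windows of all genes), TGATAA in 6 (14.6%, against 17%) and the E2F-like site in 3 (7.32%, against 7.98%). GTTCGA occurred in 2 (4.88%, against 7.73%), AAGTGCG in 5 (12.2%, against 2.15%) and AGTATAC in 0 (against 1.29%). The 5 windows with AAGTGCG were the 4 optimal ones named above and that of mev-1. This count is therefore not independent of the choice of that run either. In promoters, taken as 250 bases before to 50 after the most upstream start, CCGCCC or CCACCC occurred at 12 of 44 genes (27.3%, against 12.9% of all), TGATAA at 6 (13.6%, against 30.2%) and the E2F-like site at 6 (13.6%, against 9.2%). AAGTGCG occurred in 1 promoter, that of mev-1 (2.27%, against 2.55%), GTTCGA in 1 (2.27%, against 9.85%) and AGTATAC in 0 (against 1.7%). A match is a run of letters and does not show that a factor was bound there.

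The same count was made for related gene lists. Of 55 other genes of oxidative phosphorylation, 5 had an optimal summit (9.09%). These were ndua-2 at rank 24 with a signal of 230, nduc-2, by the summit it shares with cox-6B, nduf-9 at rank 357 with 46.6, Y82E9BR.3 at rank 365 with 45.8 and nduf-11 at rank 436 with 40.1. Of these ndua-2 is a complex I subunit whose summit lay 375 bp upstream of it and 153 bp upstream of dnj-29. Of 20 citrate cycle genes, 2 had one (10%), idhg-1, an isocitrate dehydrogenase subunit, at rank 2 with 521, and dlst-1, of the 2-oxoglutarate dehydrogenase complex, at rank 106 with 105.

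Of 70 mitochondrial ribosomal protein genes, 6 had an optimal summit (8.57%), mrps-28, mrpl-39, mrps-34, mrpl-23, mrpl-12 and mrps-6, with signals between 41.1 and 208. The summits at mrps-28, mrpl-23 and mrps-6 lay within 28 bp of a snoRNA gene. Of 78 cytosolic ribosomal protein genes, 10 had one (12.8%), rpl-3, rpl-11.1, rpl-15, rpl-20, rpl-35, rps-1, rps-12, rps-19, rps-20 and rps-28, with signals between 46.1 and 98.9. The summit of rpl-20 is that of cyc-2.1. Each of these lists, like the respiratory chain with 18.2%, stood above the 2.99% of all genes within 2 kb, and no difference between the lists was tested. Within 500 bp of a start the order of the lists was another, with 9.09% for the respiratory chain, 5.45% for the other oxidative phosphorylation genes, 10% for the citrate cycle, 2.86% for mitochondrial and 11.5% for cytosolic ribosomal protein genes, against 1.42% of all genes. Among the 5000 strongest pooled peaks the shares were 63.6% for the respiratory chain, 47.3% for the other oxidative phosphorylation genes, 40% for the citrate cycle, 48.6% for mitochondrial and 64.1% for cytosolic ribosomal protein genes, against 22.5% of all genes.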

How the data were processed

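Peak lists of anti-GFP ChIP-seq were used for 2 biological replicates, both pooled and as the optimal IDR set, all on ce11; the ce10 lists were not used here. Per the deposited file lists, the authors called peaks on the alignments of 1 replicate, or of both, against a control and applied IDR to the 3 lists. For the aligner, the peak caller and the IDR threshold, a name or value is not given in the sources used here. Each signal (column 7) is deposited by the authors as the peak's own value, comparable within a list. The q-value column (column 9) has negative values in the pooled and replicate lists and served only as a deposited score. Summits come from the deposited offset (column 10).

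Transcript starts came from Ensembl release 115 and sequence from RefSeq. Each gene took its strongest summit within 2 kb of any start, computed with Python 3.11.15, pandas 2.3.3 and numpy 2.4.6, and the procedure was tested on simulated summits. Named are all members with an optimal summit, the 3 best ranked outside it, the best ranked of each complex, those with a summit in both replicate lists or in none, and the others by rank, except where not reported here. No test was made, since there is 1 group. The members, lists and rules were chosen with earlier results of these data known. Alternatives changed the distance, the start used, sharing of summits, small RNA genes, list depth and replicates.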

Additional observations from a re-analysis of the deposited data

How the results depend on the processing

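Of 32 alternative settings tried over the 5 counts and medians, 20 moved the value by no more than 1.5 times. The 8 genes with an optimal summit became 4 within 500 bp (1.42% of all genes), 5 within 1 kb (1.96%), 5 when a summit counted only for the gene with the nearest start (1.72%), 2 among the 230 optimal peaks with the highest signal (cyc-1 and ucr-11; 1.47%) and 1 with a q-value column of at least 2 (ucr-11; 1.3%). With 1 replicate left out, as many of the strongest peaks of the other were taken. The count was then 6 without replicate 1 (2.88% of all genes) and 8 without replicate 2 (2.83%). It was 7 with the most upstream start alone (2.82%), which removed cox-6B, and 7 without summits at small RNA genes (2.1%), which removed cox-6A. The 41 genes with a pooled summit became 17 among the 2000 strongest peaks (10.6% of all genes). The 15 genes of replicate 1 became 9 within 500 bp (5.26% of all genes). The 41 of replicate 2 became 24 within 500 bp (37.3%) and 16 among as many peaks as replicate 1 has (12%). The median pooled rank of 3058 became 6316 within 500 bp (11552.5 over all genes), 5469.5 within 1 kb (11036.5) and 6139.5 for nearest genes alone (10995). Fewer peaks or shorter distances leave fewer summits by construction.

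No paired analysis was possible because there is 1 group. The lists hold no read counts, so depth limits are unknown, and the control and any other tagged strain were not analysed here. Signals of different lists are on different scales, and ranks in lists of 2401 and 30000 peaks are not equivalent.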
